A study of Capra hircus with 3 samples.

Results

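The sequences described here are the miRNAs of high number that were first named in cattle, read in the skin of the Shanbei White cashmere goat (Capra hircus). They were chosen by name: precursors that the study's list of conserved miRNAs gives as bta-mir-2284 to bta-mir-2489, bta-mir-6119 to bta-mir-6123 or bta-mir-6517 to bta-mir-6536. There were 43 such precursors of 336 listed, and their listed tags formed 47 miRNA sequences of 458, where a sequence is 1 arm of a precursor and a tag is a distinct read with its count. The list was held in shortened form, with 1999 tags for each library, so further precursors, arms and tags of its full form may be missing from all counts given here. Tags that shared the first 18 nt with a listed tag were counted, which gave 692 distinct tags and 223773 reads. Of the 47 sequences, 28 had at least 20 reads in all and are given with their values, and the other 19 had between 1 and 17 reads. Mir-2284y-3, mir-2284y-5 and mir-2284y-7 shared their listed first 18 nt and are counted together as mir-2284y. Where a precursor had reads from 2 sequences, the one with more reads is called major and the other minor.

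Small RNA was sequenced from skin in anagen, when the hair follicle grows, in catagen, when it regresses, and in telogen, when it rests. Each stage was 1 library made from mixed skin tissue of 10 adult goats, 5 of each sex per the study's methods, with no treatment, so no spread between animals can be had and every difference below is a difference between libraries. Where 3 values follow each other without a stage, they stand for the anagen, the catagen and the telogen library in this order. Levels are in TPM, the reads of a sequence scaled to 1000000 clean reads of its library. Intervals and exact tests cover counting error only.

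MicroRNAs are cut from a hairpin precursor by Drosha and Dicer, which for most miRNAs leave a largely uniform 5′ end. A start shifted by 1 base changes the seed, the stretch from base 2 to base 8 that chooses the target mRNA. Uniform starts, a narrow length and reads from the opposite arm of the hairpin are the usual signs that a tag is a miRNA and not a piece of another RNA. The mir-2284 and mir-2285 names form a large family known mainly from ruminants, with many copies in the cattle genome. The role of most of these miRNAs in skin is not established.

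The commonest tag of the sequences on which the results turn is printed below as read, with T for U, 5′ to 3′, and with the seed in capitals. The first group is shown because its seeds are shifts of each other by 1 or 2 bases. The 2 leading tags of mir-2284x differ by 1 base at the start.
mir-2284x, first start: tGAAAAGTtcgttcgggttttt
mir-2284x, second start: gAAAAGTTcgttcgggtttttc
mir-2285e-2: aAAAAGTTcgtttgggtttttc
mir-2284m: gAAAAGTTtgttcgggttttt
mir-2284z-2 minor: aAAAAGTTtgtttgggttttt
mir-2285u major: aAAAAGTTcatttgggttttct
mir-2284y: aAAAGTTCgttcgggtttttc

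The second group is shown because its tags match the reverse complement of the first group over most of their length, with GAAC where the first group has GTTC or GTTT. Mir-2284z-2 major and mir-2285l shared a seed.
mir-2284z-2 major: aAAAACCCagatgaactttttt
mir-2285l: aAAAACCCgcatgaactttttg
mir-2285o-5: aAACCCGAacgaacttttgggcat
mir-2285f-2: aAAAACCTgaatgaactttttg
mir-2285e-1: aTAAACCTgaacgaactttttg
mir-2284aa-3: aAAATCCGaacgaactttttg

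The last group lies outside the family and is shown for the contrast between single and ragged starts.
mir-6119 major: aGAGGTAAaaaattgatttgact
mir-6123: tGCCAAGCccacgttcaaagg
mir-6529 major: gAGAGATCagaggcgcagagt
mir-2387: tGGAAGGCctggctttgcagcg
mir-2483 major: cGTCAACCatccagctgtttga
mir-2411 major: tGTGGAGTgactgtcagatgcag
mir-2478: gTATCCCActtctgacacca

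Among the 28 sequences, AAAAGTT was the seed of 4 commonest tags and AAAACCC that of 2, and no other seed was shared. None of the 321 other listed sequences with at least 20 reads had one of these seeds. The seed of mir-6119 major, GAGGTAA, differed from that of let-7b, GAGGTAG, at 1 of 7 bases.

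The libraries held 15997828 (anagen), 18111912 (catagen) and 27016012 (telogen) clean reads, of which listed miRNA sequences took 45.03%, 45.08% and 36.2%, shares that leave out miRNAs whose leading tags lie outside the held part of the list. The 5 epithelial miRNAs used to check the tissue (mir-205, mir-183, mir-141, mir-200b and mir-200a) were all read in every library. MicroRNAs of skeletal muscle differed between the libraries: mir-133a, mir-133b, mir-206 and mir-1, all read in each library, summed to 4135, 78957 and 21453 TPM, and each was highest in catagen and lowest in anagen. Mir-133a and mir-133b share their main sequence, which is summed once, so they are not separate measurements. For these marker lists all tags holding bases 5 to 18 of the commonest tag were counted, a choice made after seeing the data, because the first 18 nt of the held tags gave mir-143 only 4930, 1509 and 2374 reads where this count gave 205471, 137727 and 315569. The 3 red blood cell miRNAs summed to 1324, 2151.5 and 883.9 TPM. Most of this was mir-451 in anagen and catagen (866.6, 1270 and 432.7 TPM), while in telogen mir-486 was slightly higher than mir-451. Of the others, mir-486 was also highest in catagen (342.9, 788.9 and 441.7 TPM) and mir-144 was highest in anagen (114.6, 92.2 and 9.44 TPM). The epithelial miRNAs summed to 1260, 1981 and 2058 TPM, most of it mir-205 (1056, 1820 and 1904.5 TPM), while mir-183, mir-141 and mir-200a were highest in anagen and mir-200b in catagen. The miRNAs of smooth muscle and fibroblasts, mir-143, mir-145, mir-199a and mir-214, summed to 25811, 31143 and 30247 TPM. Of these, mir-199a was highest in catagen (12939, 23497 and 18529 TPM) and mir-143 lowest there (12844, 7604 and 11681 TPM). In tissue RNA fewer cells of a type and less RNA per cell cannot be told apart.

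Together the 47 sequences took 3185 TPM in the anagen library (95% Wilson interval 3157 to 3212), 4513 TPM in the catagen library (4482 to 4544) and 3372 TPM in the telogen library (3350 to 3394). The class was thus highest in the catagen library and about level in the other libraries. The size of this difference depended on the scaling: for mir-2284x, its main sequence, the log2 ratio of catagen over anagen was 0.50 per clean reads and 0.11 by the median of ratios. The muscle miRNAs, mir-451 and mir-486 of red blood cells, mir-199a and mir-145 of smooth muscle and fibroblasts and mir-200b of epithelium were also highest in catagen, while mir-144, mir-143, mir-214 and the other 4 epithelial miRNAs were not, and the part of these cells in the result was not tested. Of the reads of all listed miRNA sequences it made up 0.707%, 1.00% and 0.931%. The order was the same on that scale, but telogen stood nearer to catagen than to anagen. Reads of 18 to 20 nt were most frequent in the anagen library, with 8.76%, 3.57% and 4.65% of the class. Among the other listed sequences they made up 5.22%, 1.89% and 2.88%. With tags of 20 to 24 nt only, the class had 3062, 4483 and 3323 TPM.

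Nearly all of the class was 1 sequence. Mir-2284x had 48094, 77067 and 86311 reads, which is 94.4%, 94.3% and 94.8% of the reads of the class. Without it the class fell to 178, 258 and 177 TPM. The next sequence was mir-2285e-2.

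**Figure D1:**
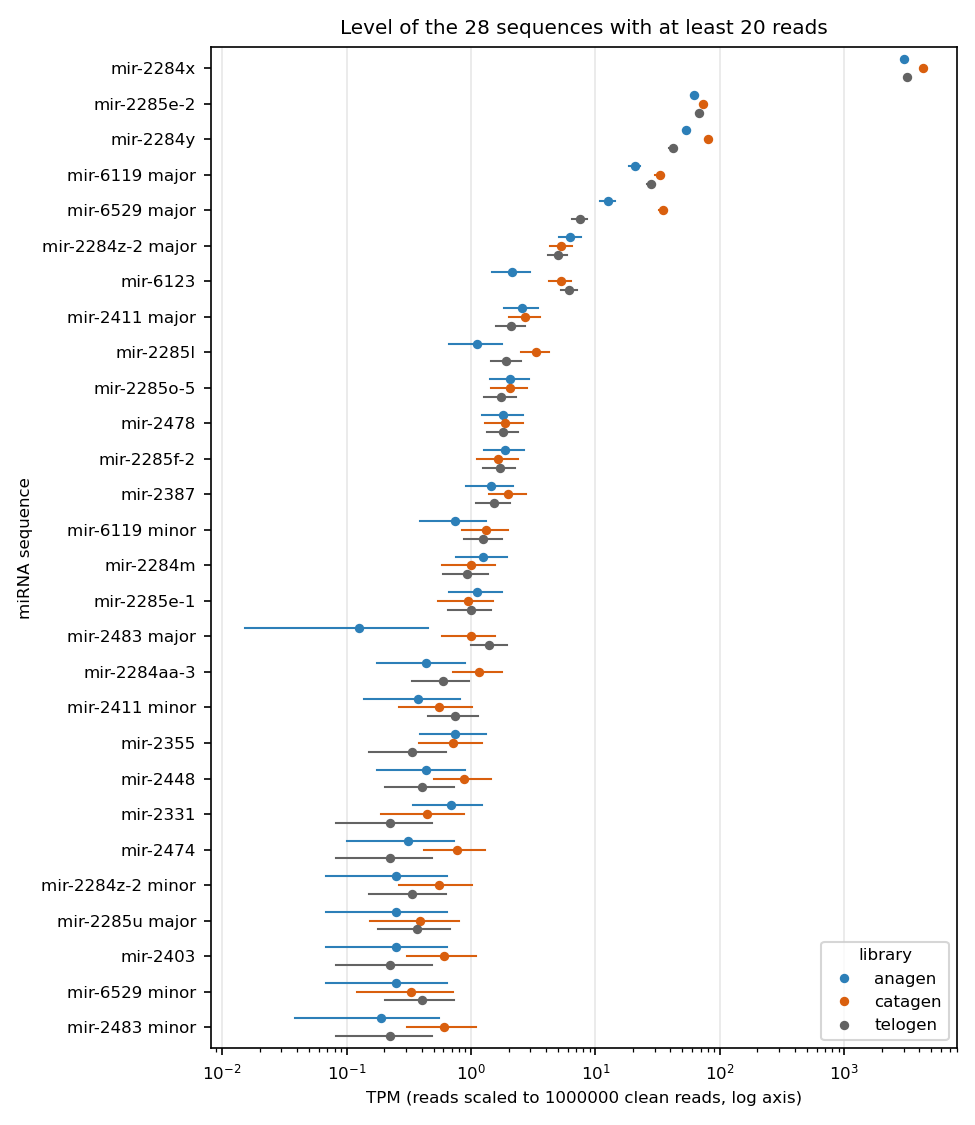
Level of each of the 28 sequences with at least 20 reads, in TPM on a log axis. Each point is 1 library and each bar its exact 95% Poisson interval, which covers counting error only. Mir-2284x lies between 3006 and 4255 TPM, and every other sequence lies at or below 79.5 in each library.

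Mir-2284x had 2 starts in near equal measure. The first start, on T, held 49.6% of its reads in the anagen library (95% interval 49.2 to 50.1), 53.2% in the catagen library (52.8 to 53.5) and 55.8% in the telogen library (55.5 to 56.2). The second start, on the G that follows, held 50.3%, 46.8% and 44.1%. The intervals of the 3 libraries did not overlap, but with 1 library a stage it was not possible to set the shift against the spread between animals.

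The forms with either start differed in their 3′ ends. Tags of the first start ended at base 22, counted from that start, in 83.8% of reads. Tags of the second start ended at base 22 in 43.3% and at base 23 in 47.8%. In length, 67.0% of the reads of mir-2284x were 22 nt and 22.4% were 21 nt.

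A start moved by 1 base moves the seed, so the reads of the 22 sequences of the mir-2284 and mir-2285 family were summed by the seed they carry. The seed GAAAAGT, which came from the first start of mir-2284x only, held 1493, 2263 and 1784 TPM. The seed AAAAGTT held 1569, 2054 and 1473 TPM, and 9 sequences contributed to it, led by the second start of mir-2284x and by mir-2285e-2. In the anagen library AAAAGTT was the more frequent seed, with 25104 reads against 23878. In the other libraries GAAAAGT was, with 40994 against 37198 reads in catagen and 48201 against 39791 in telogen. The seed AAAGTTC, 1 base further on and mainly from mir-2284y, held 59.7, 88.6 and 46.6 TPM.

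Mir-2284y cannot be told apart from a further start of mir-2284x. It had 860, 1439 and 1124 reads (53.8, 79.5 and 41.6 TPM). Of its 3423 reads, 85.7% were tags that lie whole inside a listed mir-2284x tag. By the first 18 nt alone, 98.1% of its reads had a single start, but once every tag holding bases 5 to 18 of its commonest tag was counted, whatever its start, 214537 reads were drawn in and 52.4% of them had the commonest start, since these are the bases of mir-2284x.

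Mir-2285e-2 carries the seed of the second start of mir-2284x and differs from it in other bases. It had 997, 1328 and 1818 reads, which is 62.3, 73.3 and 67.3 TPM. The libraries thus lay close to each other. The commonest start held 84.5%, 81.0% and 89.2% of its reads. Its lengths were 22 nt in 50.5% and 21 nt in 35.6% of reads.

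The reverse complement of the tags divides the family into 2 sides. On the side that holds GTTC or GTTT lay 12 sequences with 219194 reads, or 99.6% of the family, and on the side that holds GAAC lay 10 sequences with 823 reads. Mir-2284x alone accounted for most of the first side, which still held 7722 reads without it. Of these, 4143 were mir-2285e-2 and 3423 were mir-2284y, which cannot be told apart from a further start of mir-2284x. The GAAC side had 13.6, 14.8 and 12.5 TPM, so its level was near the same in the libraries. In ungapped alignment every one of the 22 commonest tags had its best reverse complement on the opposite side. This follows largely from how the sides were defined, as GAAC is the reverse complement of GTTC. The commonest mir-2285o-5 tag matched the reverse complement of mir-2284y over 18 nt with 0 mismatches. Mir-2285f-2 and mir-2285e-1 each matched that of mir-2285t over 21 nt with 1 mismatch.

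Reads of both sides were found for 2 precursors of the family, mir-2284z-2 and mir-2285u. By the first 18 nt mir-2284z-2 was read mainly from the GAAC side, with 100, 96 and 134 reads, against 4, 10 and 9 from the other side. When tags of any start were counted, the GAAC side had 104, 100 and 137 reads and the other side 64, 75 and 110. The size of this difference thus depended on the counting rule, and whether all of these reads belong to this precursor was not tested. All 330 reads of the major sequence had 1 start (96.8% when tags of any start were counted), and 80.3% were 1 tag of 22 nt. That tag was 1 base longer than the longest tag of this sequence in the held part of the list, and the tags held made up 14.5% of its reads. Whether the full list names it was not tested. The commonest tags of the 2 sides were predicted by RNAduplex to pair at 21 positions. Mir-2285u was read mainly from the opposite side, with 4, 7 and 10 reads against 2, 0 and 2, so the 2 precursors differ in the side that gave more reads. Mir-2284m, on the same side as mir-2284x, had 20, 18 and 25 reads at 1 listed start (77.1% with any start).

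The other sequences of the GAAC side varied in uniformity. Mir-2285l had 18, 60 and 52 reads, of which 50.8% had the first start and the rest began 1 base later. Mir-2285f-2 had 30, 30 and 46 reads, and its commonest start held 42.5% (95% interval 33.5 to 52.0). Mir-2285o-5 had 33, 37 and 47 reads that all began at the 1 listed start (63.4% when tags of any start were counted), and 21.4% of them fell outside 20 to 24 nt and the tag of 24 nt was the commonest. Mir-2285e-1 had 18, 17 and 27 reads and mir-2284aa-3 had 7, 21 and 16, each at the 1 listed start, and 83.8% and 71.0% were there when tags of any start were counted.

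**Figure D2:**
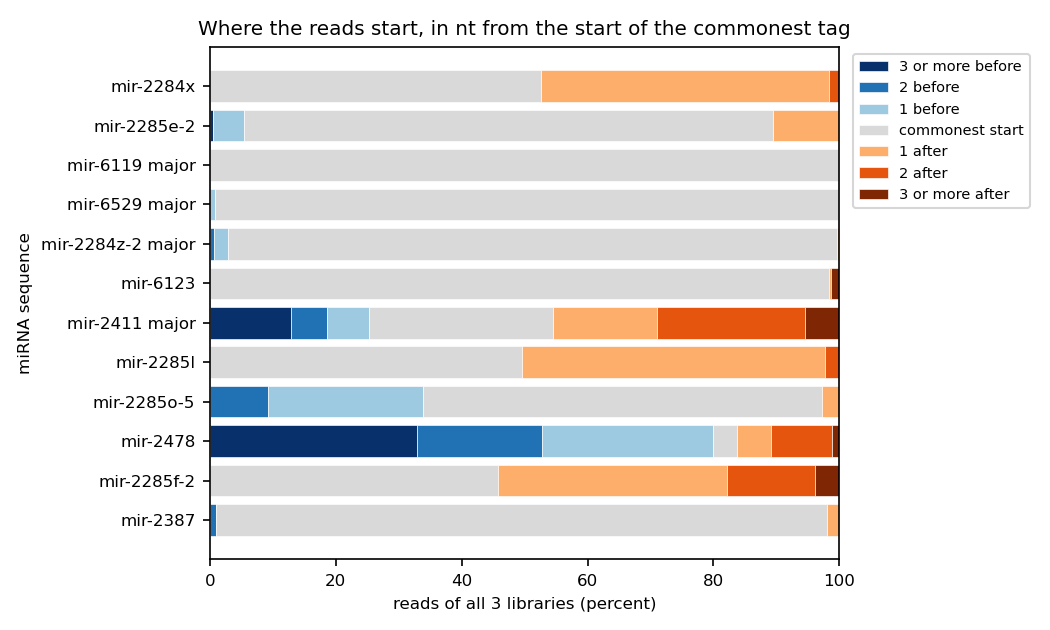
Share of the reads of all 3 libraries by start, in nt before or after the start of the commonest tag of each sequence, for tags that hold bases 5 to 18 of that tag at any start. Bars show 12 sequences with at least 100 reads; mir-2284y is left out because these bases are also those of mir-2284x. Mir-6119 major, mir-6529 major, mir-2284z-2 major, mir-6123 and mir-2387 have over 96% of reads at 1 start, while mir-2478 and mir-2411 major have under 30% at any start.

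Of the precursors outside the family, 3 were also held as hairpins in the study's list of predicted precursors. They are printed 5′ to 3′ with the tags of each arm in capitals, to show where the reads lie, and in every one the first base of the 5′ arm is base 11. Per the paper's methods, its prediction of precursors set a flank length and limits on free energy and base pairs. The place of the 5′ arm, the folding energies and the pairing are thus partly fixed by that prediction. They are no separate sign of a true precursor.
mir-6119: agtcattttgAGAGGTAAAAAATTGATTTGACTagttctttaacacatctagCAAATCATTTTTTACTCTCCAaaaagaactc
mir-6123: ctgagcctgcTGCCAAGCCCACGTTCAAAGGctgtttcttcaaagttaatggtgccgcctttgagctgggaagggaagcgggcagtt
mir-6529: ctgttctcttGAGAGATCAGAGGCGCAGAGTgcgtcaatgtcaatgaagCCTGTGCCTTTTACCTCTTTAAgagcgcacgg

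Mir-6119 was read from both arms. The 5′ arm had 330, 594 and 750 reads (20.6, 32.8 and 27.8 TPM), and 99.9% of them had 1 start. A length of 23 nt held 68.6% of its reads. The 3′ arm had 12, 24 and 34 reads and was less uniform, with 67.1% at the commonest start (95% interval 55.5 to 77.0). RNAfold gave the 83 nt hairpin a free energy of -24.5 kcal/mol with 29 base pairs. The commonest 3′ tag that matched the hairpin ran 1 nt past the base opposite the 5′ start, and the 5′ tag ran 3 nt past the base opposite the 3′ start.

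Mir-6123 was read from the 5′ arm only. It had 34, 95 and 166 reads (2.13, 5.25 and 6.14 TPM), all with 1 start. Its 3′ ends were spread, with 44.1% of reads at 21 nt, 19.7% at 22 nt and 18.6% at 23 nt. In exact matches to the hairpin of 87 nt there were 236 reads in the first part and 0 of 236 in the second, and a count of 0 allows up to 3 reads in all.

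Mir-6529 was read from both arms, with 200, 630 and 203 reads of the 5′ arm (12.5, 34.8 and 7.51 TPM) and with 4, 6 and 11 reads of the 3′ arm. The catagen library stood above the other libraries in the 5′ arm. Of the reads of the 5′ arm, 99.2% had 1 start, but the lengths formed separate peaks. The share of 18 nt, the shortest length kept, was 54.5%, 28.7% and 26.1%, and the share of 21 nt was 17.0%, 52.5% and 34.5%. Reads of 20 to 24 nt thus made up 62.7% of this arm. In the listed sequences outside the class, reads of 18 to 20 nt were also most frequent in anagen (5.22%, 1.89% and 2.88%). The 3′ arm, with 21 reads, had 1 start and no read outside 20 to 24 nt. RNAfold gave the 81 nt hairpin -30.1 kcal/mol with 28 base pairs. The 3′ tag ran 2 nt past the base opposite the 5′ start, while the 5′ tag stopped 1 nt short of the base opposite the 3′ start.

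**Figure D3:**
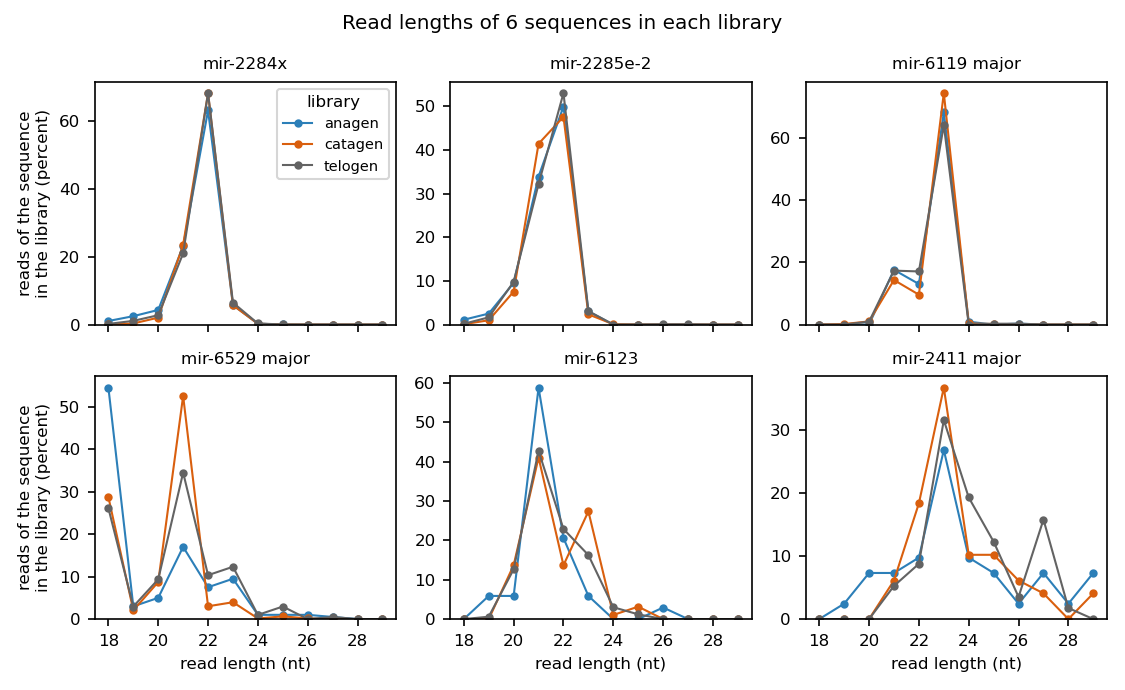
Length of the reads of 6 sequences in each library, as percent of the reads of that sequence in that library, from 18 to 29 nt. Mir-2284x peaks at 22 nt and mir-6119 major at 23 nt in all 3 libraries, mir-6529 major has peaks at 18 and 21 nt, and mir-2411 major is spread to over 26 nt.

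Mir-2478 and mir-2411 had starts that depend on how the reads are counted. By the first 18 nt mir-2478 had 29, 34 and 49 reads, all at 1 start by the form of the rule. When all tags holding bases 5 to 18 were counted, it had 1237, 1678 and 2628 reads in tags of 18 to 37 nt, with 21 starts and 27.1% of reads at the commonest of them. Of these 5543 reads, 90.1% ended in CCA, the ending that is added to mature tRNAs. The 321 other listed sequences had a median of 0% such reads, and 3 of them reached 50%. The 5 leading tags are printed because they share their end, while the first 4 differ in their start and the fifth has the start of tag 1 and differs from it within.
mir-2478, tag 1: cgtatcccacttctgacacca
mir-2478, tag 2: tcgtatcccacttctgacacca
mir-2478, tag 3: ttcgtatcccacttctgacacca
mir-2478, tag 4: atcccacttctgacacca
mir-2478, tag 5: cggatcccacttctgacacca
Whether these reads come from tRNA was not tested.

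Mir-2411 is also named among goat miRNA genes in the RefSeq table, and both of its sequences were ragged when tags of any start were counted. The major sequence had 41, 49 and 57 reads, of which 48.3% had the commonest start (95% interval 40.4 to 56.3) and 66.0% were 20 to 24 nt. Counted at any start it had 242 reads in tags of 20 to 36 nt with 29.3% at the commonest start. The minor sequence had 6, 10 and 20 reads, and at any start 117 reads with 31.6% at the commonest. The listed tags held here made up 9.52% of the reads of the major and 5.56% of those of the minor sequence. The commonest tags of the 2 sequences were predicted to pair at 14 positions, and the minor one held 19.7% of the reads.

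Further names outside the family had few reads. Mir-2387 had 23, 36 and 41 reads, all at 1 start. Mir-2483 was read from 2 sequences, with 2, 18 and 38 reads of the major and 3, 11 and 6 of the minor, and the major had 89.7% of reads at 1 start (95% interval 79.2 to 95.2). Both sequences had more reads in catagen than in anagen, and only the major had more in telogen than in catagen. Mir-2331 had 11, 8 and 6 reads, of which 24 were 1 tag of 23 nt. Mir-2355 had 12, 13 and 9 reads with 73.5% at the commonest start. Mir-2448 had 7, 16 and 11 reads with 76.5% at the commonest start, and 64.7% of them were 20 to 24 nt. Mir-2474 had 5, 14 and 6 reads and mir-2403 had 4, 11 and 6, each at 1 listed start (96.2% and 84.0% with any start).

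The signs of a miRNA were then counted over the 28 sequences. At least 90% of reads had 1 start in 17 of them (60.7%), beside 229 of the 321 other listed sequences (71.3%). At least 80% of reads were 20 to 24 nt in 24 of them (85.7%), beside 85.7% of the others. A second sequence of the same precursor was read for 11 (39.3%), beside 63.9% of the others, and all 28 had reads in each library, as had all of the others. All 4 signs were met by 5 sequences, which were mir-6119 major, mir-2284z-2 major, mir-2411 minor, mir-2285u major and mir-6529 minor (17.9%, beside 38.6% of the others).

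The rule of the first 18 nt counts only starts that the list holds, so starts were also taken from all tags with bases 5 to 18 of the commonest tag. On that measure 8 of the 28 had at least 90% of reads at 1 start, beside 218 of the 321 others (67.9%), and the median share at the commonest start was 76.4% in the class and 96.4% in the others. In the class this measure can also take in reads of related family members, as it did for mir-2284y. Reads also rose for mir-2284m (63 by the first 18 nt and 407 by this measure) and mir-2284z-2 minor (23 and 249). Of the 249 reads, 224 began 1 base after the start of the commonest mir-2284z-2 minor tag. Whether the added reads of both sequences came from related members or from unlisted starts was not tested. The 8 sequences were mir-6119 major, mir-6529 major, mir-2284z-2 major, mir-6123, mir-2387, mir-2331, mir-2474 and mir-6529 minor. All 4 signs then held for mir-6119 major, mir-2284z-2 major and mir-6529 minor, which is 3 of 28, beside 119 of the 321 others. Mir-2284x, with 2 starts of near equal size and no second arm in the list, met 2 of the 4 on either measure.

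**Figure D4:**
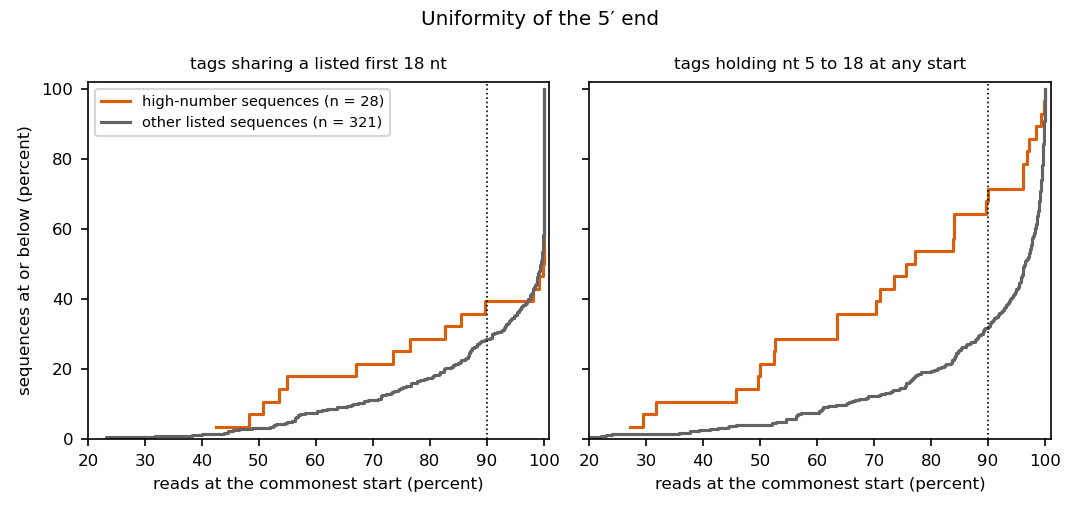
Cumulative share of sequences (vertical axis, percent) against the percent of reads at the commonest start, for 28 sequences of the class and 321 other listed sequences with at least 20 reads; the dotted line marks 90%. On the left, by listed first 18 nt, 17 of 28 lie at or above the line; on the right, by bases 5 to 18 at any start, 8 of 28 do.

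The comparison of the libraries asked which members differ between the stages. A difference was called where the ratio of TPM was past 2-fold (a log2 ratio past 1) and the exact test of Audic and Claverie of their reads (two-sided) gave a p under 0.01, among sequences with at least 1 TPM in either library. In catagen against anagen 3 of 17 members were called and all were higher in catagen, while of all 288 sequences tested 22.6% were called higher and 5.21% lower. In telogen against anagen 2 of 17 were called and both were higher in telogen, with a background of 19.6% higher and 4.90% lower over 286 sequences. In telogen against catagen 1 of 16 was called, lower in telogen, with a background of 5.92% higher and 6.97% lower over 287 sequences. The shares of the members called were 17.6%, 11.8% and 6.25%, against 27.8%, 24.5% and 12.9% of all sequences in either direction. The background depended on the scaling: by the median of ratios 28 of 53 calls were higher in catagen than in anagen and 37 of 66 higher in telogen than in anagen, and per listed miRNA reads 32 of 51 were higher in telogen than in catagen. The median log2 ratio of the members tested was 0.47 in catagen over anagen (0.44 over all sequences tested), 0.00 in telogen over anagen (0.32) and -0.24 in telogen over catagen (-0.10).

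Mir-6529 major was called against catagen on either side. Its log2 ratio was 1.48 in catagen over anagen (95% interval 1.24 to 1.71, exact p = 1.2e-41) and -2.21 in telogen over catagen (-2.45 to -1.98, exact p = 3.3e-96). With tags of 20 to 24 nt only, the first ratio became 2.25, and telogen over anagen, -0.73 with all lengths, became 0.02, from 80 reads in anagen and 137 in telogen. The muscle miRNAs (summed, 4135, 78957 and 21453 TPM) were likewise highest in catagen. Of the red blood cell miRNAs mir-451 had the order of mir-6529 major with all lengths (866.6, 1270 and 432.7 TPM), mir-144 was highest in anagen and mir-486 lowest in anagen. Of the other lists mir-199a, mir-145 and mir-200b were highest in catagen. The part of these cells in the result was not tested.

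Mir-6123 was lower in anagen than in the other libraries. The log2 ratio was 1.30 in catagen over anagen (95% interval 0.72 to 1.91, exact p = 2.7e-06) and 1.53 in telogen over anagen (0.99 to 2.11, exact p = 6.6e-10), while telogen over catagen gave 0.23 (-0.14 to 0.61, exact p = 0.24). The first of these fell to 0.91 and below the limit when libraries were scaled by the median of ratios, which moves catagen against anagen by the difference of 0.18 and -0.21 on the log2 scale.

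Mir-2285l was higher in catagen than in anagen, with a log2 ratio of 1.56 (95% interval 0.78 to 2.41, exact p = 2.4e-05). The call rests on 18 reads in anagen, under the minimum of 20 reads in both libraries that one alternative sets, which loses it. It was not called in the other comparisons, except in telogen over anagen (log2 ratio 1.09) when libraries were scaled to the reads of all listed miRNA sequences. Mir-2483 major was higher in telogen than in anagen by a log2 ratio of 3.49, a value that rests on 2 reads in anagen and has an interval from 1.54 to 6.59 (exact p = 5e-06). Among the marker miRNAs, all of those of muscle, mir-486 of red blood cells, mir-205 and mir-200b of epithelium and mir-145, mir-199a and mir-214 of smooth muscle and fibroblasts were also lowest in anagen. Of these, mir-205 (1056, 1820 and 1904.5 TPM) and mir-214 (0.625, 1.49 and 1.63 TPM) had the order of mir-6123 and mir-2483 major, with telogen highest, and the rest that of mir-2285l, with catagen highest. The other 6 marker miRNAs were not lowest in anagen. The part of these cells in the results was not tested.

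The most abundant members, mir-2284x, mir-2285e-2, mir-2284y and mir-6119 major, differed by less than 2-fold. Mir-2284x had log2 ratios of 0.50 in catagen over anagen (95% interval 0.48 to 0.52), 0.09 in telogen over anagen (0.07 to 0.10) and -0.41 in telogen over catagen (-0.43 to -0.40), so its depth separates small differences that the limit on size leaves uncalled. These small ratios depended on the scaling: by the median of ratios catagen over anagen became 0.11 and telogen over anagen became -0.19 for mir-2284x, which makes up most of the class, and catagen over anagen and telogen over anagen became -0.16 and -0.17 for mir-2285e-2, which had 0.23 and 0.11. Per reads of all listed miRNA sequences held, telogen over catagen became 0.19 for mir-2285e-2 and 0.08 for mir-6119 major, which had -0.12 and -0.24. Mir-2284y came nearest to the limit, with -0.93 in telogen over catagen (-1.05 to -0.82). Mir-6119 major had 0.67 in catagen over anagen (0.47 to 0.87). For mir-2284z-2 major, mir-2411 major, mir-2285o-5, mir-2478, mir-2285f-2 and mir-2387 the interval held 0 in all 3 comparisons at a depth of 100 to 330 reads in all, which does not show that their levels were equal. An assumed biological variation between goats (edgeR with a coefficient of 0.4) left 1 of the 6 calls, that of mir-2483 major.

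**Figure D5:**
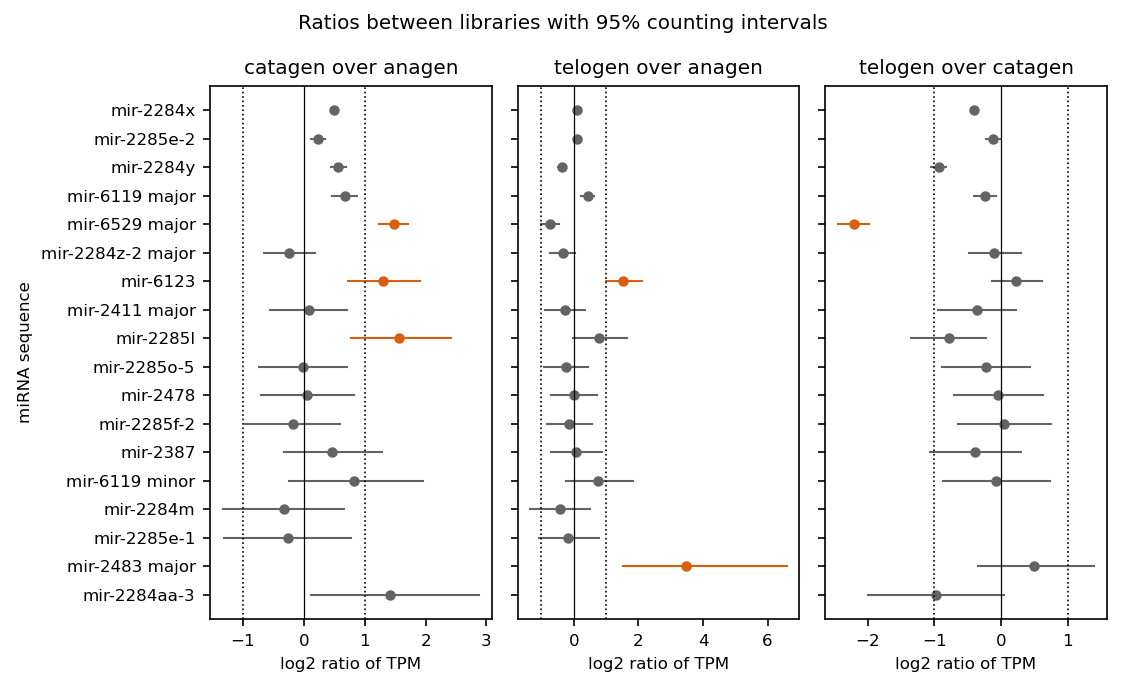
Log2 ratios of TPM between libraries for the members with at least 1 TPM in either library, with 95% counting intervals. Orange marks the called ratios (mir-6529 major, mir-6123 and mir-2285l in catagen over anagen, mir-6123 and mir-2483 major in telogen over anagen, mir-6529 major in telogen over catagen) and dotted lines mark log2 ratios of -1 and 1.

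The remaining 19 sequences had 134 reads in all. They were mir-2284d, mir-2284k, mir-2284u, mir-2284y-4, mir-2285j-2, mir-2285k-5, mir-2285n-5, mir-2285n-6, mir-2285t, mir-2285u minor, mir-2290, mir-2319a, mir-2332, mir-2334, mir-2404-2, mir-2432, mir-2487, mir-6527 and mir-6535. Of these, 8 had reads in 3 libraries, 8 in 2 and 3 in 1. A member without reads in a library may lie anywhere up to 3 reads there, which is 0.188, 0.166 and 0.111 TPM, so their presence or absence by stage was not detectable at this depth. Mir-2284y-4 (1, 7 and 9 reads) and mir-2285j-2 (4, 5 and 7) were the most frequent. The RefSeq table of goat genes (assembly ARS1.2) names 15 miRNA genes with a number in these ranges, and 8 of them bear the name of a member, by name only.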

How the data were processed

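The deposited files give the authors' count of reads for each distinct clean tag of a library, raw and not normalised, in tags of 18 to 44 nt. Per the paper's methods, the authors removed low-quality reads, adapter contaminants and reads under 18 nt, and no alignment to a genome enters the counts used here. The names come from the authors' list of tags annotated against cattle miRNAs, held here in shortened form (1999 tags per library), which undercounts miRNAs whose leading tags were left out. Marker miRNAs were therefore counted by bases 5 to 18, a rule applied to them after seeing the data. Members and gene lists were chosen with earlier results of these data known.

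Listed tags of a precursor that overlapped by at least 14 nt formed 1 sequence. Clean tags were assigned by the first 18 nt, and levels are TPM, reads scaled to 1000000 clean reads. Members with at least 20 reads were named. The exact test was checked on simulated counts that held counting error only, so the check does not cover variation between animals or libraries. Intervals are 95% Wilson for shares and Clopper-Pearson for ratios, and for the call rule and the medians a count of 0 was set to 0.01 TPM, while no ratio of such a sequence is printed. Hairpins were folded with RNAfold and arms paired with RNAduplex (ViennaRNA 2.7.2); edgeR 4.0.16, Python 3.11.15 and scipy 1.17.1 were used. Alternatives were other scalings, tag rules, minimums and tests.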

Additional observations from a re-analysis of the deposited data

How the results depend on the processing

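With 1 library per stage, no replicate could be left out. No paired analysis was possible because the labels give no replicate numbers and each stage is 1 library. No call reversed under any of the 10 alternatives, and with Fisher's exact test or Benjamini-Hochberg adjustment the counts of member calls were as reported. Over all sequences, Benjamini-Hochberg adjustment gave 77 calls instead of 80 in catagen against anagen and 36 instead of 37 in telogen against catagen. With an assumed coefficient of variation of 0.4 (edgeR's exact test), member calls fell from 3 to 0 in catagen against anagen, from 2 to 1 in telogen against anagen and from 1 to 0 in telogen against catagen. With at least 20 reads in both libraries catagen against anagen kept 2 of 3 calls, without mir-2285l, and telogen against anagen kept 1, without mir-2483 major, and with no minimum level telogen against catagen had 2 (with mir-2474 added) and catagen against anagen 4, with mir-2483 major added. Scaled to the reads of all listed miRNA sequences, catagen against anagen also had 4, with the same addition, and mir-2285l was also called in telogen against anagen. Counted by bases 5 to 18 at any start, mir-2487 was added as lower than anagen in both other libraries. Scaled by the median of ratios, telogen against anagen had 3 calls, 2 higher and 1 lower in telogen, the lower being mir-6529 major. The summed level of the class was 3008, 4278 and 3185 TPM (anagen, catagen, telogen) with listed tags only, and 3062 in anagen and 3323 in telogen with tags of 20 to 24 nt. Scaled to 1000000 reads of all listed miRNA sequences it was 7072, 10010 and 9314, and without mir-2284x it was 178.3, 258 and 176.8 TPM. Sequences with at least 90% of reads at 1 start numbered 8 instead of 17 when tags of any start were counted, and 8 of 13 with at least 100 reads. Reads of 21 to 23 nt made up 90.9%, 96.1% and 94.9% of the class, where 20 to 24 nt made up 96.2%, 99.3% and 98.6%. In the other listed sequences 20 to 24 nt made up 96.2%, 99% and 98.0%, so the class was close to them in length.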
